A study of Mus musculus with 8 samples.

Results

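The genes of the classical cadherins and of the catenins that bind them were compared between the mouse cornea and limbus. They are Cdh1, Cdh2, Cdh3, Cdh4, Cdh11 and Cdh13, which encode cadherins, and Ctnna1, Ctnnb1 and Ctnnd1, which encode catenins. The 9 genes were chosen by symbol, out of 23420 genes named in the deposited table, of which 17442 had reads, and all 9 had more than 3 reads in both tissues. The tissues came from young adult wild type C57BL/6J mice with no transgene and no treatment. The limbal rim, which encircles the cornea where it meets conjunctiva and sclera, was cut away from the corneal button, the cornea inside that ring. Buttons and rims of several eyes were each pooled before RNA extraction, so a value belongs to a pool and not to an animal. The labels number 4 samples per tissue, but the deposited means fit 1 library of each tissue. Whether the 4 are separate samples or parts of 1 library is not stated. No spread between replicates and no p-value could be had. The intervals given here are exact 95% intervals that cover counting error only.

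Cadherins are membrane proteins that hold neighbouring cells together by binding, in the presence of calcium, to cadherins on the next cell. Inside the cell, p120-catenin binds near the membrane and keeps the cadherin at the surface, β-catenin binds the end of the tail, and α-catenin links β-catenin to actin. β-catenin is also the transcriptional effector of Wnt signaling. In the corneal surface E-cadherin joins epithelial cells, P-cadherin is typical of basal cells of stratified epithelia, and N-cadherin is known from mesenchymal, neural and endothelial cells.

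The type I classical cadherins carry the tripeptide His-Ala-Val in the first extracellular repeat, and the codons for it are shown because they separate the members by class. The coding sequences of Cdh1, Cdh2, Cdh3 and Cdh4 each held these 3 codons in frame 1 time, while those of Cdh11, a type II cadherin, and Cdh13, which has no cytoplasmic tail, held them 0 times. The stretches below are from the sense strand of the GENCODE transcripts of GRCm38, 5′ to 3′, with the His-Ala-Val codons in capitals. The first capital starts codon 235 of 884 in Cdh1, codon 178 of 822 in Cdh3 and codon 245 of 913 in Cdh4.
Cdh1: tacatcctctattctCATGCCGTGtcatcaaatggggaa
Cdh3: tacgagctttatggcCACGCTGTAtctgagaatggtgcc
Cdh4: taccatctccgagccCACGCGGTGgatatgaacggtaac

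Named genes held 26104317 reads of the cornea library and 21182025 of the limbus library. Krt12, the keratin of differentiated corneal epithelium, had 1137735 corneal and 233324 limbal reads, and Krt15, a keratin of limbal basal cells, had 37738 and 353826. With Krt14, Krt19 and Kera they were used to set which library is corneal, so their directions cannot test that choice. Reads of 10 lists of cell type markers differed between the libraries. Per 1000000 reads of each library, 12 epithelial markers summed to 71552 in the cornea and 62081 in the limbal library, 9 keratocyte and fibroblast markers to 3087 and 5508, and 5 corneal endothelial markers to 127 and 381. The 9 vascular endothelial markers summed to 9.69 and 148, 7 markers of mural and smooth muscle cells to 13.7 and 149.6, and 6 of skeletal muscle to 1.49 and 412. Melanocyte markers summed to 12.1 and 75.1, Schwann cell and nerve markers to 221 and 354, immune markers to 265 and 652, and retina and lens markers to 49.1 and 510.3. The epithelial sum was thus lower in the limbus library, carried by Krt12 and Krt5, although 7 of its 12 markers were at least 2-fold higher there and their median log2 ratio of limbus over cornea was 2.19. The sum of each other list was higher in the limbus library. In such bulk tissue fewer cells of a type and less RNA per cell cannot be told apart.

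The levels of the 3 catenins and of Cdh1 stood well above the rest in both tissues. Levels are given as RPKM, that is reads per kilobase of merged exons for every 1000000 reads on named genes, which corrects for gene length. In the cornea the order ran from Ctnnb1 at 140.3 RPKM through Ctnna1 at 113, Cdh1 at 88.4 and Ctnnd1 at 74.0 to Cdh3 at 2.22, Cdh11 at 1.77, Cdh4 at 1.35, Cdh13 at 0.570 and Cdh2 at 0.0807. In the limbus it ran from Ctnnb1 at 126 RPKM through Ctnna1 at 110, Cdh1 at 93.3 and Ctnnd1 at 76.9 to Cdh3 at 13.4, Cdh11 at 2.84, Cdh13 at 2.08, Cdh2 at 0.574 and Cdh4 at 0.481. The first 6 places were the same in both tissues by this length. With the longest transcript in place of merged exons they were not, since Cdh11 at 2.79 RPKM passed Cdh3 at 2.22 in the cornea, and in the limbus Ctnna1 at 189 passed Ctnnb1 at 181 and Cdh13 at 5.13 passed Cdh11 at 4.48. Whether neighbours in these orders differ beyond the spread between animals was not tested.

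**Figure D1:**
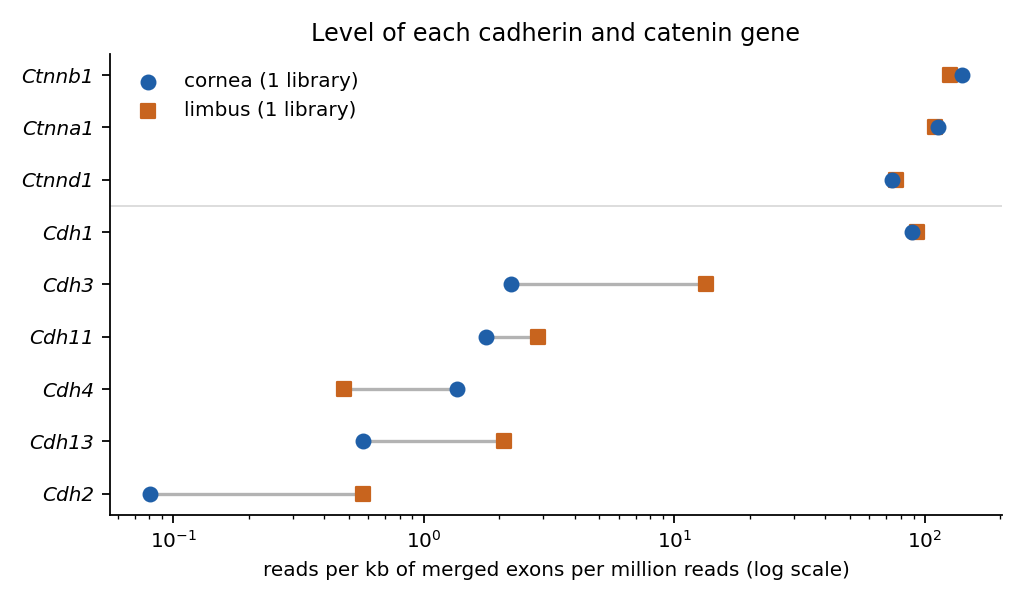
Level of each gene in the cornea (circles) and limbus (squares), 1 library each, in RPKM on a log axis. The catenins and Cdh1 lie between 74.0 and 140.3, with both tissues close together, while the other cadherins lie at or under 13.4 and the tissues are apart.

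Cdh1 encodes E-cadherin, the main adhesion protein of epithelial junctions. It lies on the plus strand of chromosome 8 at 106603351 to 106670246 (GRCm38). The gene had 10556 corneal and 9038 limbal reads, or 10211 and 9343 after division by the size factors of the table. The cornea was 1.09-fold higher, a log2 ratio of limbus over cornea of -0.13 (interval -0.17 to -0.088). The direction depends on the scaling: per total reads the log2 ratio was 0.077 (0.037 to 0.12). Of the 12 epithelial markers, 7 had higher limbal and 5 higher corneal values, over a range of log2 ratios from -2.19 for Krt12 to 5.16 for Krt4. Epcam, another epithelial surface protein, had -0.40. Cdh1 gave 93.7% of the summed RPKM of the 6 cadherins in the cornea and 82.8% in the limbus.

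Cdh3 encodes P-cadherin and is the neighbour of Cdh1, on the same strand at 106510891 to 106557297, ending 46.1 kb before it. Its reads numbered 254 in the corneal and 1243 in the limbal library, 246 and 1285 after normalization. The limbus was 5.23-fold higher (interval 4.57 to 6.01), a log2 ratio of 2.39 (2.19 to 2.59). This placed Cdh3 above 94.0% of all genes tested, which had to hold over 3 reads in each library. Its part of the summed cadherin level was 2.35% in the cornea and 11.9% in the limbus. Markers of basal epithelium differed in both directions. Krt14 had a log2 ratio of 2.52 and Krt15 3.32, whereas Krt5, the keratin that pairs with Krt14, had -0.41, and Trp63, a transcription factor of basal epithelial cells, had 8737 corneal and 3929 limbal reads, at a log2 ratio of -1.06. The part of these cells in the Cdh3 ratio was not tested.

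Cdh2 encodes N-cadherin and lies on the minus strand of chromosome 18 at 16588877 to 16809246. It had the fewest reads of the 9 genes, 17 corneal and 98 limbal, 16.4 and 101 after normalization. The limbus was 6.16-fold higher, and because of the 17 corneal reads the interval is wide, from 3.66 to 11.0. The log2 ratio of 2.62 (1.87 to 3.46) was the largest among the 9 genes, but its interval overlaps that of Cdh3. Cdh2 made up 0.0855% of the cadherin level in the cornea and 0.509% in the limbus.

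Cdh4 encodes R-cadherin, the closest relative of N-cadherin among the members, and lies on the plus strand of chromosome 2 at 179442431 to 179899373. It differed in the other direction, with 256 corneal and 74 limbal reads, 248 and 76.5 after normalization. The cornea was 3.24-fold higher (interval 2.49 to 4.25), a log2 ratio of -1.69 (-2.09 to -1.32), and 2.14% of all genes tested lay below it. Cdh4 was thus the only member at least 2-fold higher in the cornea. Its part of the cadherin level was 1.43% in the cornea and 0.427% in the limbus.

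Cdh11 encodes a type II cadherin known from mesenchymal cells and lies on the minus strand of chromosome 8 at 102632095 to 102785642. With 411 corneal and 536 limbal reads, or 398 and 554 after normalization, it was 1.39-fold higher in the limbus, a log2 ratio of 0.48 (0.29 to 0.67). Its part of the cadherin level was 1.87% in cornea and 2.52% in limbus. The log2 ratios of the keratocyte and fibroblast markers ran from -2.99 for Kera to 5.39 for Thy1 with a median of 0.93, and beyond counting error 6 of the 9 markers were higher in limbus, 2 in cornea. Over all genes tested, 33.2% were higher in limbus and 40.6% in cornea. The part of keratocytes and fibroblasts in the Cdh11 ratio was not tested.

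Cdh13 encodes T-cadherin, which is held in the membrane by a lipid anchor, binds no catenin and is known from the vessel wall. The gene lies on the plus strand of chromosome 8 at 118283733 to 119324921. With 167 corneal and 496 limbal reads, or 162 and 513 after normalization, it was 3.17-fold higher in the limbus (interval 2.66 to 3.81), a log2 ratio of 1.67 (1.41 to 1.93) that lay above 89.9% of all genes tested. Its part of the cadherin level was 0.603% in cornea and 1.85% in limbus, or 1.41% and 4.25% with the longest transcript in place of merged exons. Of the markers with more than 3 reads in each library, all 6 vascular endothelial and all 5 mural ones had higher limbal values. Their log2 ratios ran from 0.81 for Kdr to 7.21 for Pecam1 in the endothelial list, and from 1.96 for Pdgfrb to 6.22 for Rgs5 in the mural list. All tested markers of corneal endothelium, skeletal muscle, melanocytes, immune cells, and retina and lens were also higher in the limbus. Over all genes tested the share was 33.2%. The part of vessels in the Cdh13 ratio was not tested.

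The 3 catenins were each slightly higher in the cornea under the size factors of the table. Ctnnb1, encoding β-catenin, lies on the plus strand of chromosome 9 at 120929216 to 120960507 and had 19010 corneal and 13895 limbal reads, a log2 ratio of -0.36 (-0.39 to -0.32). Ctnna1, encoding αE-catenin, lies on the plus strand of chromosome 18 at 35118859 to 35254779 and had 18871 and 14980 reads, a log2 ratio of -0.24 (-0.27 to -0.21). Ctnnd1, encoding p120-catenin, lies on the minus strand of chromosome 2 at 84600071 to 84650765 and had 14135 and 11926 reads, a log2 ratio of -0.15 (-0.18 to -0.11). The cornea was 1.28-fold, 1.18-fold and 1.11-fold higher in turn, and these ratios lay above those of 32.7%, 39.1% and 44.2% of all genes tested. Per total reads the log2 ratios were -0.15 for Ctnnb1, -0.032 for Ctnna1 and 0.056 for Ctnnd1, so that of Ctnnd1 changed sign. Exons of all 3 catenins overlap the spans of other genes, exons and introns together. Among these are Lrrtm2 for Ctnna1 and Ulk4 for Ctnnb1, both on the opposite strand, and Gm28635 for Ctnnd1 on the same strand. Whether exons of the other genes overlap those of the catenins was not tested. How reads were assigned there, and whether strand was used, is not given in the sources used here.

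**Figure D2:**
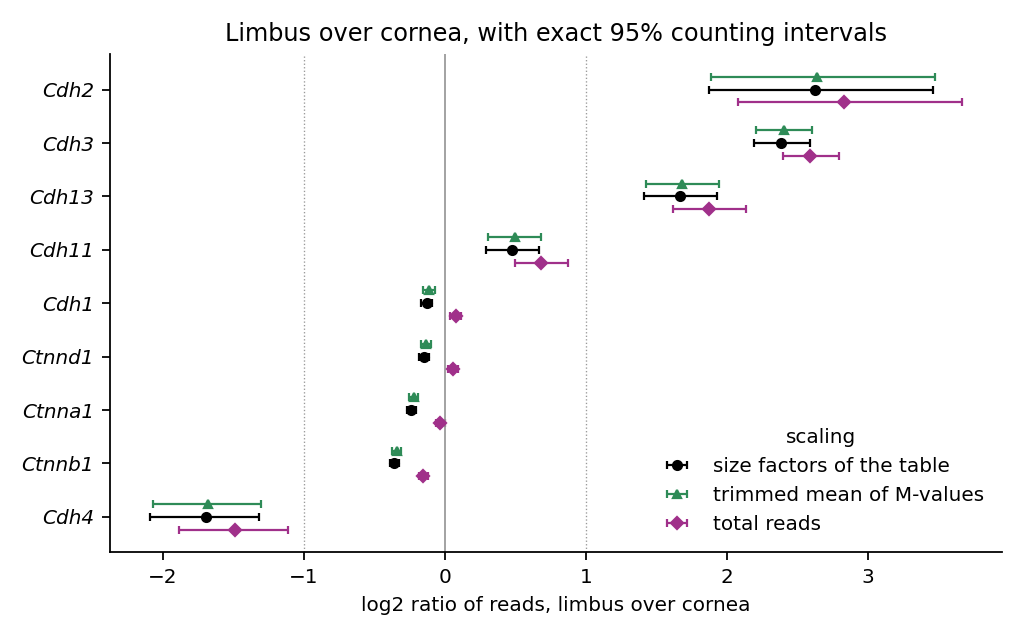
Log2 ratio of reads, limbus over cornea, for each gene with exact 95% counting intervals, under the size factors of the table (circles), the trimmed mean of M-values (triangles) and total reads (diamonds). Dotted lines mark 2-fold. Cdh2, Cdh3, Cdh13 and Cdh11 lie to the right of 0 and Cdh4 to the left under all 3 scalings, while Cdh1 and Ctnnd1 lie to the left of 0 under the first 2 and to the right under total reads.

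Among the 9 genes, 4 had higher limbal values beyond counting error, Cdh2, Cdh3, Cdh11 and Cdh13, and 5 higher corneal values, Cdh1, Cdh4 and the 3 catenins. Of all 13862 genes tested, 33.2% were higher in the limbus by the same rule and 40.6% in the cornea, so an interval clear of 0 was common at this depth. Per total reads the balance turned round, with 6 of the 9 genes and 45.1% of all genes higher in limbus and 3 genes and 29.7% higher in cornea. At least 2-fold higher in the limbus were 3 of the 9 genes, against 15.5% of all genes, and at least 2-fold higher in the cornea was 1, against 8.99%. The median log2 ratio was 1.07 over the 6 cadherins, -0.24 over the 3 catenins and -0.055 over all genes. Cdh1 and the catenins belong to the abundant genes, and the 668 genes averaging 5000 normalized reads or more, a limit set after the values were seen, had a median of -0.13 and quartiles of -0.53 and 0.17. The log2 ratios of Cdh1, Ctnnd1, Ctnna1 and Ctnnb1 all lay between those quartiles.

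**Figure D3:**
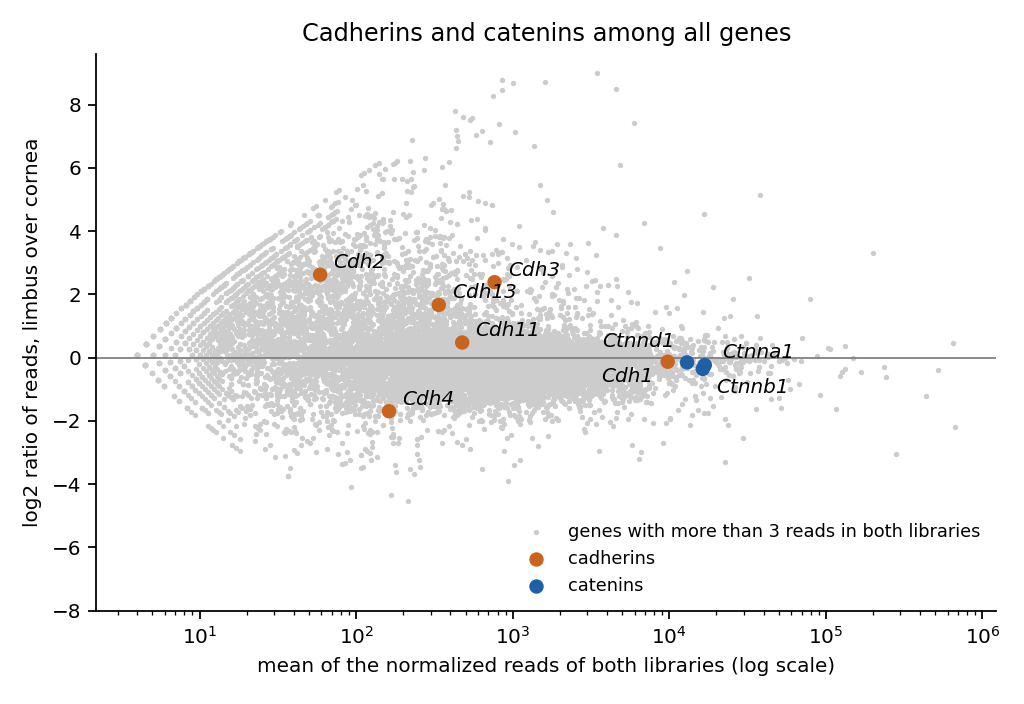
Log2 ratio of reads, limbus over cornea, against the mean of the normalized reads of both libraries on a log axis, for the 13862 genes tested (grey), the cadherins (orange) and the catenins (blue). The catenins and Cdh1 sit near 0 among the abundant genes, Cdh2, Cdh3 and Cdh13 above 1, and Cdh4 below -1.

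The ratio of 2 genes within a library does not depend on how the libraries are scaled, and 11 such ratios were compared between the tissues. For every 100 reads of Cdh1 there were 2.41 corneal and 13.8 limbal reads of Cdh3, a 5.72-fold difference (interval 4.97 to 6.59). Reads of Cdh2 per 100 of Cdh1 were 0.161 and 1.08, 6.73-fold apart (3.99 to 12.0). Those of Cdh13 were 1.58 and 5.49, 3.47-fold apart (2.90 to 4.17), and those of Cdh11 were 3.89 and 5.93, 1.52-fold apart (1.33 to 1.74). Relative to E-cadherin, each of these cadherins therefore had more reads in the limbus than in the cornea.

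The balance of R-cadherin and N-cadherin differed between the tissues. For each read of Cdh2 there were 15.1 corneal and 0.755 limbal reads of Cdh4, 19.9-fold apart, and the ratio in the limbus divided by that in the cornea was 0.0501 (interval 0.0266 to 0.0916). Per length, Cdh4 was 16.7-fold above Cdh2 in the cornea (10.2 to 29.2), while in the limbus it stood at 0.839-fold (0.612 to 1.15), an interval that holds 1, so which of them was higher there is not resolved at this depth. The Cdh2 to Cdh11 ratio was 4.42-fold higher in the limbus (2.57 to 8.01), so reads of the 2 cadherins linked to mesenchymal cells did not differ by the same factor.

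Ratios among the catenins and E-cadherin differed little between the tissues. Ctnnd1 to Cdh1 was 0.985-fold in the limbus relative to the cornea (interval 0.949 to 1.02), the only one of the 11 whose interval holds 1. Ctnna1 to Cdh1 was 0.927-fold (0.895 to 0.961) and Ctnnb1 to Cdh1 0.854-fold (0.824 to 0.885). Between catenins, Ctnnb1 to Ctnna1 was 0.921-fold (0.893 to 0.950) and Ctnnd1 to Ctnna1 1.06-fold (1.03 to 1.10). By merged exons the summed level of the 3 catenins was 327 RPKM in cornea and 313 in limbus, and that of the 6 cadherins 94.4 and 112.7. The catenin sum was thus 3.46-fold the cadherin sum in the cornea and 2.78-fold in the limbus. These figures depend on the length used: with the longest transcript Ctnna1, for example, stood at 194 RPKM in the cornea and 189 in the limbus. The cadherin sum includes Cdh13, which binds no catenin. The catenin sum leaves out Jup, described below, which had 29126 corneal and 23404 limbal reads.

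Genes that act with these members were described by 5 lists of 63 genes in all. Among 15 other catenins and junction partners, 14 had more than 3 reads in both libraries, beyond counting error 3 had higher limbal and 8 higher corneal values, none reached 2-fold, and the median log2 ratio was -0.23, close to the -0.24 of the member catenins. Jup, encoding plakoglobin, which can take the place of β-catenin on the cadherin tail, was the most abundant with 29126 corneal and 23404 limbal reads, at a log2 ratio of -0.22. The shares over all genes tested, for this list and the next, were 33.2% higher in limbus and 40.6% in cornea, with a median of -0.055. The nectins, a second family of adhesion proteins at these junctions, and afadin, which ties them to actin, gave 3 of 6 genes with higher limbal and 1 with higher corneal values, with a median of 0.17. The most abundant was Nectin4 (Pvrl4 in the table) with 10614 and 9753 reads, at a log2 ratio of -0.026 (-0.066 to 0.014), and Nectin3 (Pvrl3) was the only one past 2-fold, with 21 and 47 reads, at a log2 ratio of 1.26 (0.49 to 2.07).

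Of 17 other cadherins, 8 had 3 reads or fewer in both libraries, among them 5 with 0 in both, 5 others were that low in the cornea alone and 1 in the limbus alone. The remaining 3 had a median of 1.88. Cdh19, known from Schwann cells, had 6 corneal and 68 limbal reads, a log2 ratio of 3.60 (2.40 to 5.09), and Cdh26 had 11 and 38, a 3.69-fold difference. The most abundant was Cdh5, encoding the cadherin of vascular endothelium, with 3 corneal and 421 limbal reads. After normalization this was a 150.0-fold difference, with a counting interval from 51.0 to 730.1 because of the 3 corneal reads.

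Among 11 genes for the processing, cleavage, ubiquitination and traffic of cadherins, 10 were tested, 4 had higher limbal and 5 higher corneal values, and the median was -0.10. The shares over all genes tested were 33.2% and 40.6%. Pcsk5, a proprotein convertase, was the only one past 2-fold, with 20 and 76 reads, at a log2 ratio of 2.02 (1.30 to 2.81). The most abundant was Rab11a, of the recycling endosome, with 8822 and 5182 reads, at a log2 ratio of -0.67. Adam10, a protease that sheds E-cadherin, had 2341 and 1333 reads, at a log2 ratio of -0.72.

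Of 14 regulators that repress or maintain E-cadherin and the epithelial state, 13 were tested, 7 had higher limbal and 5 higher corneal values, with a median of 0.35. The shares over all genes tested were 33.2% and 40.6%, and 15.5% were at least 2-fold higher in the limbus. All 4 past 2-fold are known as repressors or mesenchymal factors and were higher in the limbus: Zeb2 with 43 and 251 reads had a log2 ratio of 2.64, Snai1 with 22 and 112 reads 2.44, Zeb1 with 97 and 293 reads 1.69, and Twist2 with 78 and 161 reads 1.14. Snai2 and Twist1, of the same families, had log2 ratios of -0.28 and -0.27. Esrp1, an epithelial splicing factor, was the most abundant of the list with 8615 and 5661 reads, at a log2 ratio of -0.51, and Grhl2, which maintains E-cadherin expression, had -0.54. Ovol1 and Grhl3, also epithelial factors, went the other way with log2 ratios of 0.51 (0.41 to 0.61) and 0.35 (0.27 to 0.43). The part of the non-epithelial cells in these ratios was not tested.

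**Figure D4:**
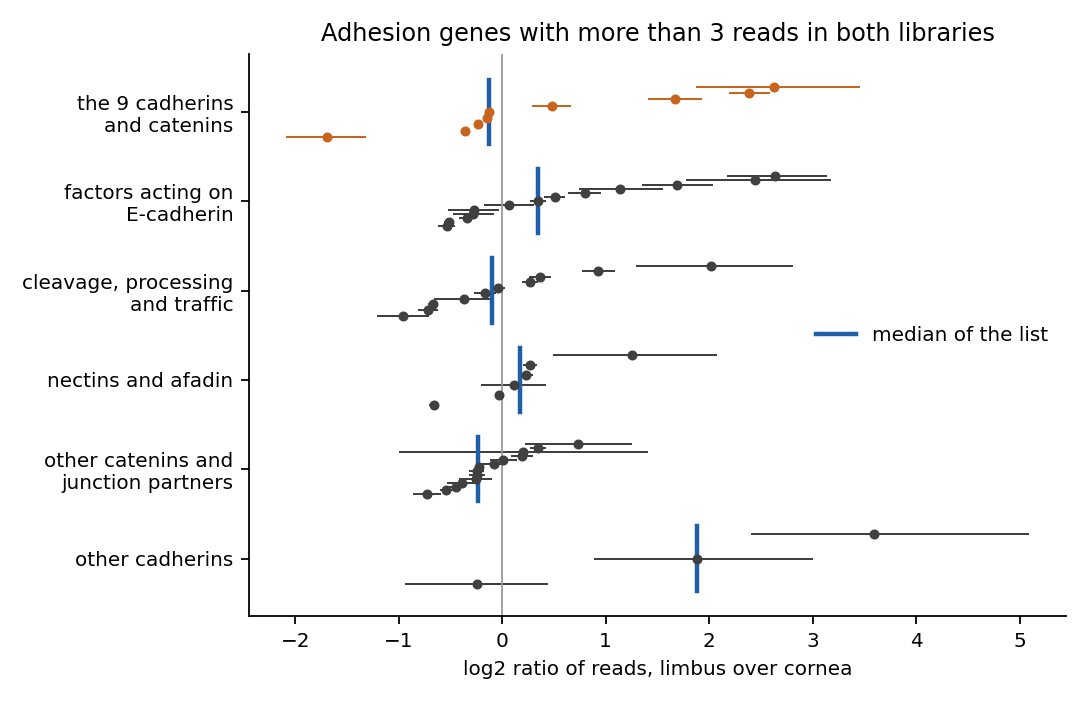
Log2 ratio of reads, limbus over cornea, with exact 95% counting intervals, for the genes of 5 lists and for the 9 cadherins and catenins, each with more than 3 reads in both libraries. Blue bars mark the median of each list, from -0.23 for the other catenins and junction partners to 1.88 for the other cadherins, which rests on 3 genes.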

How the data were processed

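Limbal rims and corneal buttons of wild type mice were pooled by tissue, and libraries made with a stranded total RNA kit were sequenced as paired-end reads. Per the study's methods, the authors trimmed adaptors and used CLC Genomics Workbench to map to GRCm38 (mm10), with normalization by a trimmed mean of M-values. A mean normalized signal over libraries was deposited for each gene in 1 table. These means were modelled with size factors of the kind a median of gene ratios gives, not a trimmed mean of M-values. The trimmed mean computed here adds 0.017 to each log2 ratio. The authors' own comparison was deposited as log2 fold changes, standard errors, p-values and adjusted p-values. The deposited p-values were not used. The deposited log2 values are printed nowhere and served only to choose between read pairs.

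The 17442 means above 0 move in steps that 2 libraries of whole reads give when 109 corneal reads weigh as much as 102 limbal ones (size factors 1.03 and 0.967). The mean alone allowed 1 pair of reads for 6143 genes, Cdh2 among them. For the other genes, including the other 8 members, a negative binomial model with shrunken dispersion and fold change was used. For each allowed pair it gave the dispersion that yields the deposited fold change. The pair taken missed the deposited standard error and the shrunken dispersion least, in a weighted sum. Where the fold change was almost 0, the pair with normalized reads nearest to equal was taken. Both deposited quantities, the fold change and its standard error, were met within 0.001 in sum for 17423 genes and missed for 19. The 9 members missed by at most 0.000136, and their next best pairs by at least 0.302. Reads are therefore derived values. The table does not name the sign's direction, which was set from the keratins and keratocan that the study assigns to cornea or limbus. The procedure was tested on data simulated from the same fitted model. That test cannot show whether the model matches how the deposited values were made.

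Reads were divided by the size factors, and each log2 ratio of limbus over cornea was given with a 95% interval by the exact method of Clopper and Pearson on limbal reads among all reads of the gene. Ratios of 2 genes were given with the exact conditional interval of the odds ratio. Genes with 3 reads or fewer in a library got no ratio, except Cdh5, whose ratio is given with its counting interval. Reads stand for 1 library per tissue, and PCR duplicates are not told apart, so intervals cover counting error only. Positions and exon lengths are from GENCODE for GRCm38, and RPKM was computed from merged exons. Nectin and afadin genes stand under older symbols in the table. The accession column was not used, because 2 of 18554 accessions with a RefSeq symbol matched the gene named.

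The genes named are the 9 members, every tested gene of the junction lists with a log2 ratio of size 1 or more and the most abundant gene of each. Cell type markers and others were picked from the lists after their values were seen. The members, the 5 junction lists and the 10 cell type lists were chosen with earlier results of these data known. Alternatives were total reads, a trimmed mean of M-values trimming 30% of log ratios and 5% of means at each end, centring on the median, a pseudocount of 1, the next best read pair, filters on a mean of 10 and 50, and the longest transcript. Python 3.11.15, numpy 2.4.6, pandas 2.3.3 and scipy 1.17.1 were used.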

Additional observations from a re-analysis of the deposited data

How the results depend on the processing

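The trimmed mean of M-values and a pseudocount of 1 left every member and every ratio between members on its side of 0. Scaling to total reads adds 0.21 to each log2 ratio, the trimmed mean 0.017 and centring 0.055, and the share of tested genes above 0 goes from 46.6% to 58.9% under total reads. Under total reads Cdh1 turned to 0.077 and Ctnnd1 to 0.056, Ctnna1 moved to -0.032, Ctnnb1 to -0.15, Cdh3 to 2.59 and Cdh11 to 0.68. The other catenins and partners then had 5 genes with higher limbal and 4 with higher corneal values, the nectins 5 with higher limbal values, and the turnover genes and the regulators 3 each with higher corneal values. Of all genes tested, 45.1% were then higher in limbus and 29.7% in cornea. Centring gave -0.074 for Cdh1, -0.18 for Ctnna1, -0.30 for Ctnnb1 and -0.095 for Ctnnd1. With a mean of at least 50, 0 other cadherins were left higher in the limbus, because fewer genes were tested. The next best read pairs, which miss the table by far more, gave -0.80 for Cdh1, 5.42 for Cdh3, 2.97 for Cdh4 (reversed), 2.03 for Cdh11, 3.46 for Cdh13, -1.47 for Ctnna1, -2.24 for Ctnnb1 and -0.93 for Ctnnd1. With these pairs the log2 ratios between members were 6.23 for Cdh3 to Cdh1, 2.84 for Cdh11 to Cdh1, 4.26 for Cdh13 to Cdh1, 0.34 for Cdh4 to Cdh2 (reversed), -0.77 for Ctnnb1 to Ctnna1, 0.54 for Ctnnd1 to Ctnna1, -0.13 for Ctnnd1 to Cdh1, -1.44 for Ctnnb1 to Cdh1, -0.67 for Ctnna1 to Cdh1 and 0.59 for Cdh2 to Cdh11. Cdh2 has no other pair. With the longest transcript in place of merged exons, the Cdh2 part of the cadherin level was 0.135% in cornea and 0.791% in limbus, and that of Cdh13 1.41% and 4.25%. Leaving out single replicates was not run, since the table holds no value per sample. No paired analysis was possible because the means fit 1 library per tissue and the columns of the table carry no replicate number. Depth limits Cdh2 most, with 17 corneal reads.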
